A study of Mus musculus with 6 samples.

Results

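The transcripts of the Greatwall kinase and protein phosphatase 2A (PP2A) pathway were examined in fully grown mouse oocytes that lack LSM14B, a protein that binds mRNA. The 10 genes were Mastl, Ensa, Arpp19, Ppp2ca, Ppp2cb, Ppp2r1a, Ppp2r1b, Ppp2r2a, Ppp2r2d and Ppp2r5c. They were chosen by symbol for their place in the pathway, and all 10 were found among the 24255 genes of the deposited expression table. RNA-Seq libraries of 20 fully-grown oocytes (FGOs) each, at the germinal vesicle (GV) stage, were compared between genotypes, with 3 libraries of wild type (WT) and 3 of Lsm14b-knockout (Lsm14b-KO) mice. GV-stage FGOs have finished growth and are still arrested in prophase of the first meiosis. Female mice of both groups were on a C57BL/6J background and had received 5 IU of PMSG, a gonadotropin that stimulates follicle growth, 46 h before collection, while their age was not given in the sources used here. Lsm14b-KO mice were homozygous for Lsm14b tm1a(KOMP)Mbp, a reporter-tagged insertion present in all cells of the animal and absent from the WT group. The sources used here do not say how many mice gave the 20 oocytes of a library, so p-values measure only the spread between these libraries, which may be technical. Values of single libraries are given below in the order of replicates 1, 2 and 3 of each group.

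Greatwall, encoded by Mastl, is a kinase that helps oocytes and dividing cells to enter and keep M phase. It phosphorylates 2 small related proteins, ENSA and ARPP19, which then bind and inhibit PP2A holoenzymes that hold a B55 regulatory subunit. Because PP2A-B55 removes phosphates that CDK1-cyclin B has placed, its inhibition lets CDK1 substrates stay phosphorylated. A PP2A holoenzyme combines a catalytic, a scaffold and a regulatory subunit, and the regulatory subunit sets which substrates are used. In mouse oocytes Greatwall is known for its role after germinal vesicle breakdown, when the oocyte must pass from the first to the second meiotic division without entering interphase.

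Short stretches show an LSM14B-bound site of Mastl and the sites of Ensa and Arpp19 that Greatwall phosphorylates. The first is the stretch of the Mastl 3′UTR that the study located as bound by LSM14B and deleted in its reporter assay. It lies within a 3′UTR of 2829 nt, at chr2:23117781-23117800 on the minus strand. The study also reported binding sites in the coding region of Mastl, which are not shown here. LSM14B-binding sites of the other members were not looked up. The other sequences are the codons around the serine that Greatwall phosphorylates, which is codon 67 of 117 in Ensa (chr3:95628544-95628570, plus strand) and codon 62 of 112 in Arpp19 (chr9:75056638-75056664, plus strand). All were read from GENCODE vM21 transcripts on GRCm38 and are written 5′ to 3′, and capitals mark the serine codon.
Mastl 3′UTR site: tagtgatggagtctcactgc
Ensa codons: aagtactttgacTCAggagactacaac
Arpp19 codons: aagtattttgatTCTggggactacaac
The Ensa and Arpp19 stretches share 23 of 27 bases (85.2%), whereas the coding sequences share 249 of 336 aligned bases (74.1%). The paired subunit genes are also distinct at the nucleotide level, with coding identities of 82.1% for Ppp2ca and Ppp2cb, 77.2% for Ppp2r1a and Ppp2r1b, and 77.6% for Ppp2r2a and Ppp2r2d.

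Expression was given as FPKM, which scales fragments by the length of the transcript and the size of the library. The number of fragments per library was not used here. From the steps between the lowest FPKM values, and with WT replicate 1 set to 1, relative depth was estimated at 1 to 1.14 in the WT and 1.33 to 2.17 in the Lsm14b-KO group. The FPKM sum was 1141320 to 1244180 in the WT and 564671 to 1029730 in the Lsm14b-KO group. Lsm14b itself had 2.77, 3.98 and 1.72 FPKM in the WT group, and the table lists it at 0, 0 and 0.102 FPKM for the Lsm14b-KO group. Lsm14b-KO replicate 1 was the closest of its group to the WT libraries. Across tested genes its Pearson's r on log2(FPKM + 1) was 0.952 to 0.954 with the WT libraries, 0.960 with Lsm14b-KO replicate 3 and 0.917 with Lsm14b-KO replicate 2. Replicates 2 and 3 had an r of 0.974 with each other and 0.867 to 0.929 with the WT libraries. Values that changed most when replicate 1 was left out are given both ways. Of 16 oocyte markers 15 were expressed well enough to be tested, with a summed level of 21200 to 22700 FPKM in WT and 15100 to 24000 FPKM in Lsm14b-KO libraries, and 4 of the 15 passed the test described below (Ddx4, Nobox and Padi6 higher and Dazl lower in the knockout). Over all tested genes 21.6% passed that test. The 18 markers of cumulus and granulosa cells summed to 24.3 to 32.1 FPKM in WT and 25.3 to 65.0 FPKM in Lsm14b-KO libraries, and 8 of them, Amh, Foxl2 and Lhcgr included, were at 0 in all 6. Of these 18, 4 were tested and 1 passed, Cyp19a1, which encodes aromatase and had 11.5, 8.26 and 10.5 FPKM in the WT and 5.47, 3.00 and 5.76 FPKM in the Lsm14b-KO group. Serpine2 and Fshr, not past the threshold, had 13.4 to 20.2 and 0.349 to 1.68 FPKM in WT and 16.4 to 58.9 and 1.82 to 2.08 FPKM in Lsm14b-KO libraries. The part of such cells in the results below was not tested. All 6 red blood cell markers found, 6 of 7 theca and stroma markers and 3 of 5 immune cell markers were at 0 throughout.

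The pathway was expressed unevenly, with 1 abundant substrate, a kinase and a catalytic subunit at intermediate levels, and scaffold and regulatory members near the lower limit of the data. In the WT libraries Arpp19 was highest, followed without overlap by Mastl and Ppp2ca, whose ranges overlapped each other. Ppp2r2d, Ppp2r2a, Ppp2r5c, Ensa and Ppp2r1a formed the next group, in which each range overlapped that of its neighbour. Ppp2cb and Ppp2r1b came last. The order of the first 8 genes was the same in the Lsm14b-KO libraries, whereas Ppp2r1b stood above Ppp2cb without overlap. Of the 10 members, 7 remained below 5 FPKM in every library and 4 were at 1 FPKM or more in every library. The WT mean ranked 574 among 6398 tested genes for Arpp19, 2108 for Mastl, 2125 for Ppp2ca and between 3960 and 5092 for the other 5 tested members.

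**Figure D1:**
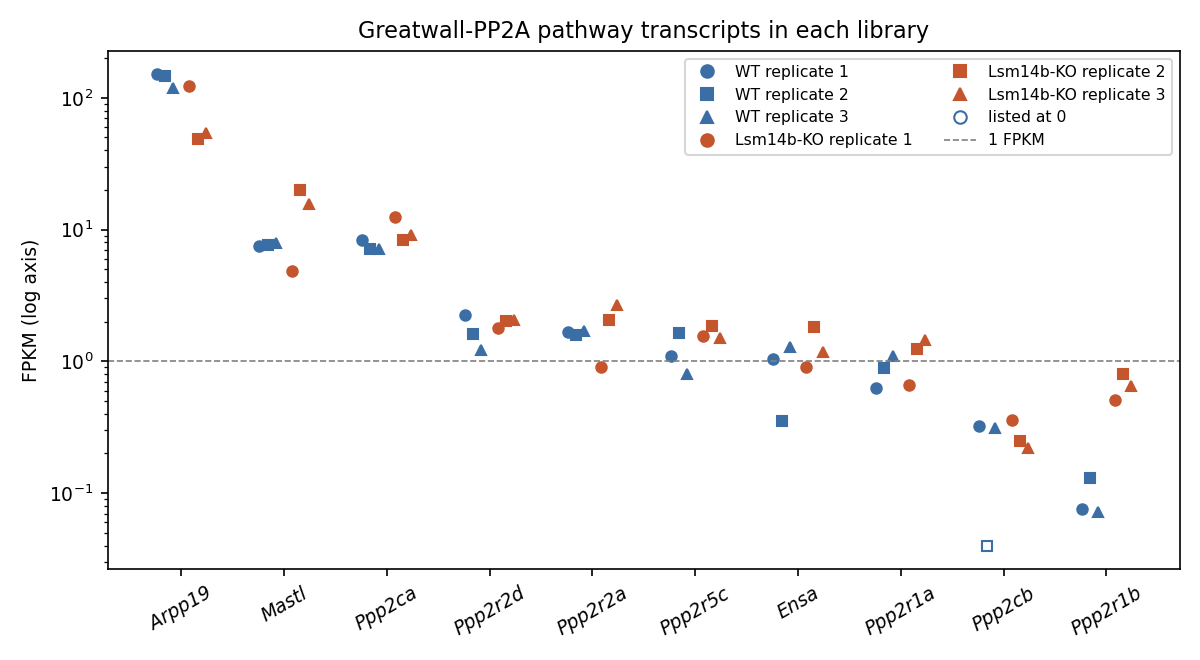
FPKM of the 10 pathway genes (log axis) in each of the 3 WT and 3 Lsm14b-KO libraries, ordered by WT mean, with an open symbol for a gene listed at 0 and a dashed line at 1 FPKM. Arpp19 lies far above the other genes, Lsm14b-KO replicate 1 lies on the other side of the WT values from replicates 2 and 3 for Mastl, and the groups are separate for Ppp2r1b.

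None of the 8 tested members passed the threshold of an adjusted p under 0.05 in limma over all 6398 tested genes. In the same fit 21.6% of all tested genes passed it, 6.38% as higher and 15.2% as lower in the knockout. Before adjustment, 1 member (Arpp19) had a p under 0.05. The fitted difference was positive for 7 members and negative for Arpp19, with a median of 0.23 on the log2(FPKM + 1) scale beside -0.08 over all tested genes. In 0 of the 8 tested members were the groups without overlap, against 45.0% of all tested genes. These counts leave out Ppp2cb and Ppp2r1b, which stayed below 1 FPKM in all 6 libraries and were not tested in that fit. Because each library was a pool of oocytes with no RNA standard, a lower transcript level per oocyte and fewer oocytes that carry the transcript cannot be told apart.

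Mastl (chr2:23115606-23156024, minus strand, protein coding, 12 exons) encodes the kinase and was examined because its protein level is a subject of the study. It had 7.56, 7.69 and 7.85 FPKM in the WT and 4.84, 20.1 and 15.5 FPKM in the Lsm14b-KO group. The WT libraries were almost equal, whereas replicate 1 of the Lsm14b-KO group lay below all of them and replicates 2 and 3 lay above. The log2 difference was 0.54 (SE 0.45, 95% interval -0.50 to 1.59, adjusted p = 0.383 in limma). An exact permutation test on these log2 values had a two-sided p of 0.4. This did not exceed the spread between replicates. Without Lsm14b-KO replicate 1 the difference was 1.10 (adjusted p = 0.00498 in limma), in a fit in which 45.3% of all tested genes passed. Without Lsm14b-KO replicate 2 it was 0.175, and without Lsm14b-KO replicate 3 it was 0.349.

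The 5 well-expressed genes whose pattern over the 6 libraries was most like that of Mastl were Chsy1, E330012B07Rik, Slc39a10, Atg5 and Capza2. Their Pearson's r with Mastl on log2(FPKM + 1) ran from 0.985 to 0.994 among 2559 genes with a mean of at least 5 FPKM, of which 58 had an r above 0.95. Chsy1, which encodes a chondroitin sulfate synthase, had 13.5, 14.1 and 16.5 FPKM in the WT and 7.67, 45.3 and 31.2 FPKM in the Lsm14b-KO group. Atg5, an autophagy gene, had 21.3, 20.2 and 20.2 FPKM in the WT and 15.4, 77.6 and 52.3 FPKM in the Lsm14b-KO group. As for Mastl, replicate 1 of the Lsm14b-KO group was below and replicates 2 and 3 were above all WT libraries. Both genes were picked for their likeness to Mastl in these values, so the shared pattern is no independent result. All these genes share the same 6 libraries, and Chsy1 and Atg5 also overlap other annotated genes. The 4 other MAST family kinases, Mast1 to Mast4, were below 1 FPKM throughout and were not tested. Mast4, the highest of them, had 0.916, 0.911 and 0.798 FPKM in the WT and 0.455, 0.421 and 0.468 FPKM in the Lsm14b-KO group, without overlap. Groups were also without overlap in 45.0% of all tested genes.

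Of the substrates, Arpp19 (chr9:75037614-75060313, plus strand, protein coding, 3 exons) carried nearly all of the signal. It had 150.7, 145.2 and 117.7 FPKM in the WT and 122.8, 48.7 and 54.2 FPKM in the Lsm14b-KO group. Replicates 2 and 3 of the Lsm14b-KO group were below every WT library, while replicate 1 lay within the WT range. The group means were 137.9 ± 17.7 and 75.2 ± 41.3 FPKM (SD, n = 3 each), and their ratio was 0.546. The log2 difference was -0.98 (SE 0.40, 95% interval -1.91 to -0.06) with an unadjusted p of 0.0388 and an adjusted p of 0.108 in limma, so it did not pass. Leaving out Lsm14b-KO replicate 1 gave -1.40 (adjusted p = 0.00228 by limma), in a fit in which 45.3% of all tested genes passed. The difference was -0.74 without Lsm14b-KO replicate 2 and -0.82 without Lsm14b-KO replicate 3, and it did not pass in either fit. Arpp19 was the only tested member with a lower fitted level, and its difference was -0.30 when all libraries were scaled to the same FPKM sum (TPM scaling, adjusted p = 0.364 in limma). Relative to the median of the tested genes it was -0.91 as fitted first and -0.70 under TPM scaling. On the same basis it was -0.49 with quantile normalization and -1.06 after a correction for transcript length and GC content.

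Ensa (chr3:95624993-95632102, plus strand, protein coding, 3 exons) was expressed about as weakly as the scaffold gene Ppp2r1a. It had 1.03, 0.352 and 1.28 FPKM in the WT and 0.901, 1.82 and 1.19 FPKM in the Lsm14b-KO group. The groups overlapped, and the values rested on few fragments, an estimated 5.7 in WT replicate 2. The log2 difference was 0.30 (SE 0.27, 95% interval -0.31 to 0.91, adjusted p = 0.405 in limma). Of the summed FPKM of both substrates, Ensa made up 0.681, 0.242 and 1.08% in the WT and 0.728, 3.61 and 2.14% in the Lsm14b-KO group. Replicates 2 and 3 of the Lsm14b-KO group had the highest shares and replicate 1 a share within the WT range. The means were 0.666 ± 0.417% and 2.16 ± 1.44% (SD, n = 3 each), and the exact permutation test gave a two-sided p of 0.2, where 0.1 is the smallest that 3 libraries against 3 allow. The difference of 1.49 percentage points was 2.21 without Lsm14b-KO replicate 1 and 0.77 without Lsm14b-KO replicate 2.

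The balance between kinase and substrate transcripts was taken within each library, where the scaling between libraries has no effect. For every 100 FPKM of Ensa and Arpp19 together there were 4.98, 5.29 and 6.60 FPKM of Mastl in the WT and 3.91, 39.7 and 28.1 FPKM in the Lsm14b-KO group. Replicates 2 and 3 of the Lsm14b-KO group thus held more kinase transcript per substrate transcript than any WT library, and replicate 1 held less. The mean log2 ratio was -4.16 ± 0.21 in WT and -2.61 ± 1.80 in Lsm14b-KO FGOs (SD, n = 3 each), a difference of 1.55 with a two-sided p of 0.4 in the exact permutation test. It was 2.58, 0.91 and 1.16 without Lsm14b-KO replicate 1, 2 or 3.

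**Figure D2:**
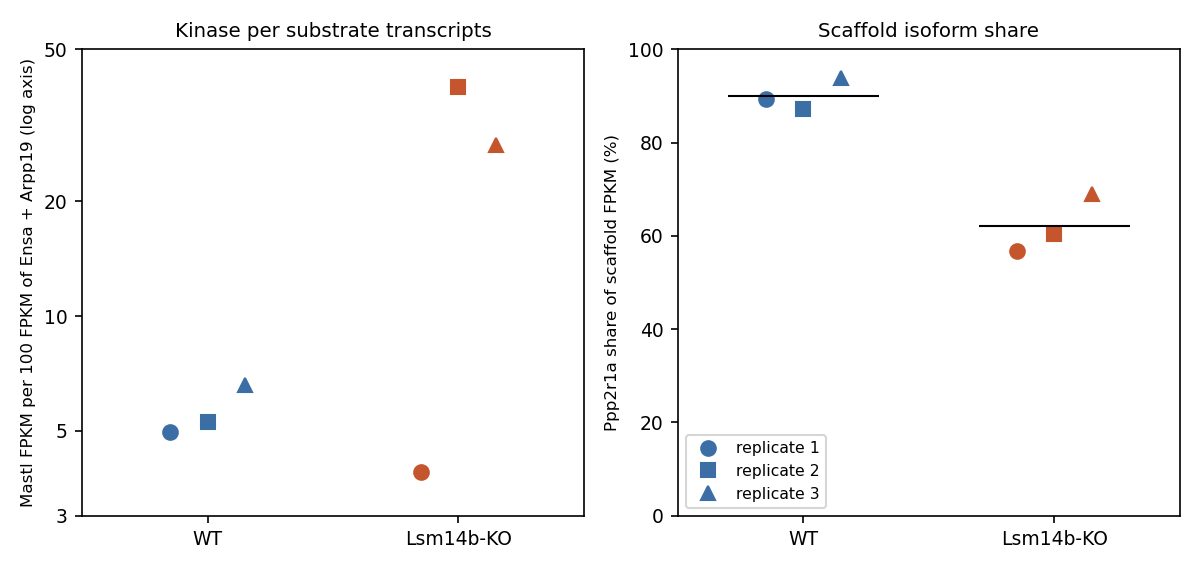
Left, Mastl FPKM per 100 FPKM of Ensa plus Arpp19 in each library (log axis). Right, the share of Ppp2r1a in the summed FPKM of both scaffold genes, with lines at the group means of 90.1% in WT and 62.1% in Lsm14b-KO libraries, where all 3 Lsm14b-KO values lie below all WT values. The share depends on Ppp2r1b, which rested on few fragments.

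The catalytic subunit of PP2A was represented almost entirely by Ppp2ca (chr11:52098681-52127778, plus strand, protein coding, 7 exons). It had 8.34, 7.15 and 7.18 FPKM in the WT and 12.5, 8.32 and 9.10 FPKM in the Lsm14b-KO group. Replicates 1 and 3 of the Lsm14b-KO group were above all WT libraries, and replicate 2 fell just short of the highest WT value. The log2 difference was 0.34 (SE 0.24, 95% interval -0.21 to 0.90, adjusted p = 0.307 in limma), and 0.18 without Lsm14b-KO replicate 1. Under TPM scaling, which shifted the median of all tested genes by 0.475, Ppp2ca rose by 0.97 (adjusted p = 0.0307 in limma, where 20.6% of all tested genes passed), or by 0.57 relative to the new median. After a correction for transcript length and GC content its difference was 0.113, or 0.01 relative to the median. A stretch of 1898 nt of Ppp2ca is nearly identical to the overlapping long non-coding RNA 9430098F02Rik on the other strand, and the library strand was not stated, so the value is uncertain.

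Ppp2cb (chr8:33599625-33619441, plus strand, protein coding, 7 exons), the second catalytic gene, was barely detected. It had 0.321, 0 and 0.311 FPKM in the WT and 0.361, 0.247 and 0.221 FPKM in the Lsm14b-KO group, an estimated 0 to 2.4 fragments per library. The groups overlapped, and no difference was detectable at this depth. Of the catalytic FPKM, Ppp2ca made up 96.3, 100 and 95.9% in the WT and 97.2, 97.1 and 97.6% in the Lsm14b-KO group, with a two-sided p of 1.0 in the exact permutation test.

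Transcripts of the scaffold gene Ppp2r1b were higher in all 3 Lsm14b-KO than in all 3 WT libraries, at levels below 1 FPKM, whereas those of Ppp2r1a overlapped. Ppp2r1a (chr17:20945311-20965916, plus strand, protein coding, 15 exons), the main scaffold gene of most tissues, had 0.631, 0.882 and 1.10 FPKM in the WT and 0.663, 1.23 and 1.45 FPKM in the Lsm14b-KO group. Its log2 difference was 0.16 (SE 0.22, 95% interval -0.35 to 0.68, adjusted p = 0.595 in limma), within the spread between replicates, and 0.33 without Lsm14b-KO replicate 1. Ppp2r1b (chr9:50845301-50894229, plus strand, protein coding, 17 exons) had 0.0755, 0.131 and 0.0724 FPKM in the WT and 0.505, 0.804 and 0.652 FPKM in the Lsm14b-KO group. The lowest of the Lsm14b-KO values was that of replicate 1. The means were 0.0929 ± 0.0328 and 0.654 ± 0.149 FPKM (SD, n = 3 each), a ratio of 7.04. Such a separation was not particular to Ppp2r1b. Other untested pathway genes below 1 FPKM were also higher without overlap, among them Ppp2r3a, Ppp1r8, Strn3 and Ppp2r5d. Their ratios of means were 13.7, 10.9, 8.32 and 2.01. Mast4 was lower without overlap, and others, such as Ppp2cb, overlapped. The share over all genes below 1 FPKM was not counted.

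Ppp2r1b was separated between the groups but rested on few fragments, an estimated 1.0, 2.0 and 1.0 in the WT and 8.9, 20.8 and 18.9 in the Lsm14b-KO group. With 3 libraries against 3, the two-sided p of 0.1 from the exact permutation test was the smallest possible. In a fit without a filter on low values, which tested 14325 genes and passed 5.03% of them, Ppp2r1b rose by 0.59 on the log2(FPKM + 1) scale (SE 0.12, 95% interval 0.31 to 0.88, adjusted p = 0.0422 in limma). This call was lost under TPM scaling (0.83, adjusted p = 0.0775 in limma) and without Lsm14b-KO replicate 2 (0.53, adjusted p = 0.0651 in limma). Without WT replicate 1, 2 or 3 or Lsm14b-KO replicate 3 the difference was 0.58 to 0.62, but 0 of the 14325 genes passed in those fits, so they do not test its call. The difference without Lsm14b-KO replicate 1 was 0.66 (adjusted p = 0.0182 in limma). These further fits were chosen after its values had been seen. Ppp2r1b also overlaps Sik2 on the other strand and shares 1429 nt with it, so fragments of both genes cannot be told apart in that stretch. The deposited table lists Sik2 at 0.152, 0 and 0 FPKM in the WT and at 0, 0.118 and 0 FPKM in the Lsm14b-KO group, and the part of Sik2 fragments in the Ppp2r1b values was not tested.

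Within the scaffold pair the share of Ppp2r1a was 89.3, 87.1 and 93.8% in the WT group. The Lsm14b-KO group had 56.8, 60.5 and 68.9%, below all WT values in every library. The means were 90.1 ± 3.43% and 62.1 ± 6.24% (SD, n = 3 each), a difference of -28.0 percentage points with the smallest possible two-sided p of 0.1 in the exact permutation test. This share holds the Ppp2r1b values described above, an estimated 1.0 to 2.0 fragments per WT library, so it is no independent result. Summed over both genes, scaffold transcripts had 0.706, 1.01 and 1.17 FPKM in the WT and 1.17, 2.03 and 2.10 FPKM in the Lsm14b-KO group. The ratio of Ppp2ca FPKM to Ppp2r1a FPKM was 13.2, 8.10 and 6.53 in the WT and 18.9, 6.77 and 6.28 in the Lsm14b-KO group, with overlap.

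**Figure D3:**
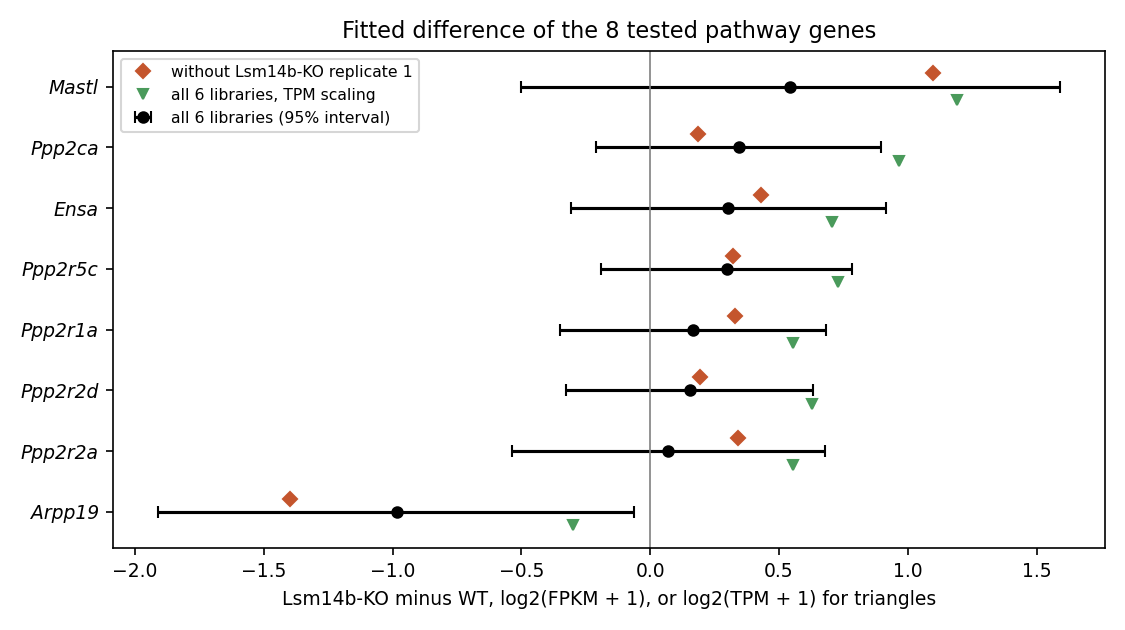
Fitted Lsm14b-KO minus WT difference of the 8 tested pathway genes on the log2 scale, with bars for the 95% interval, diamonds for the fit without Lsm14b-KO replicate 1 and triangles for TPM scaling. The intervals of all genes but Arpp19 include 0, and the Mastl and Arpp19 values lie farther from 0 without Lsm14b-KO replicate 1.

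The B55 members Ppp2r2a and Ppp2r2d encode the subunits that phosphorylated ENSA and ARPP19 inhibit. Ppp2r2a (chr14:67014056-67072444, minus strand, protein coding, 10 exons) had 1.67, 1.58 and 1.68 FPKM in the WT and 0.904, 2.05 and 2.67 FPKM in the Lsm14b-KO group. As for Mastl, replicate 1 of the Lsm14b-KO group was below and replicates 2 and 3 were above the narrow WT range. The log2 difference was 0.07 (SE 0.26, 95% interval -0.54 to 0.68, adjusted p = 0.854 in limma), it was 0.34 without Lsm14b-KO replicate 1, and its sign turned without Lsm14b-KO replicate 3 (-0.13) and, relative to the overall median, after the length and GC correction (-0.07). Ppp2r2d (chr7:138846079-138883057, plus strand, protein coding, 9 exons) had 2.25, 1.60 and 1.23 FPKM in the WT and 1.80, 2.02 and 2.07 FPKM in the Lsm14b-KO group. All Lsm14b-KO values lay within the WT range, with a log2 difference of 0.15 (SE 0.21, 95% interval -0.32 to 0.63, adjusted p = 0.593 in limma). Ppp2r2d overlaps Mapk1ip1 on the other strand, a gene at 41.9 to 54.8 FPKM in WT and 13.9 to 35.6 FPKM in Lsm14b-KO libraries, and the part of such fragments in its value was not tested.

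The B56 member Ppp2r5c (chr12:110447120-110583062, plus strand, protein coding, 13 exons) belongs to the other large family of PP2A regulatory subunits, which is not a target of ENSA and ARPP19. It had 1.09, 1.64 and 0.797 FPKM in the WT and 1.55, 1.87 and 1.51 FPKM in the Lsm14b-KO group. The groups overlapped because of WT replicate 2, and the log2 difference was 0.30 (SE 0.21, 95% interval -0.19 to 0.78, adjusted p = 0.313 in limma). Ppp2r5c overlaps the non-coding gene Gm19605 on the other strand.

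The most abundant B55 transcript was not a member. Ppp2r2b, whose product is best known from brain, had 154.6, 146.1 and 122.3 FPKM in the WT and 218.6, 110.9 and 134.6 FPKM in the Lsm14b-KO group, and was picked for description after its values were seen. Its level was thus close to that of Arpp19 in the WT libraries and far above those of Ppp2r2a and Ppp2r2d, and its groups overlapped (log2 difference 0.08, adjusted p = 0.870 in limma). Under TPM scaling, which shifted the median of all tested genes by 0.475, Ppp2r2b passed as higher (0.77, adjusted p = 0.0395 in limma). In that fit 20.6% of all tested genes passed. Without Lsm14b-KO replicate 1 the sign of Ppp2r2b turned (-0.20). It overlaps 1 annotated gene on each strand. Among all 4 B55 and 5 B56 genes, B55 genes held 99.0, 98.1 and 98.6% of the summed FPKM in the WT and 98.8, 95.5 and 96.8% in the Lsm14b-KO group. The difference was -1.53 percentage points with a two-sided p of 0.3 in the exact permutation test, and it was -2.41 without Lsm14b-KO replicate 1 and -0.756 without Lsm14b-KO replicate 2. The B56 genes alone summed to 1.63, 2.94 and 1.73 FPKM in the WT and 2.73, 5.44 and 4.56 FPKM in the Lsm14b-KO group.

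Other genes of the pathway were described by lists, for each of which the background of 21.6% of tested genes applies in the first fit. This share was 20.6% under TPM scaling and 45.3% without Lsm14b-KO replicate 1. Over all tested genes 1275 passed with quantile normalization and 1437 after the length and GC correction, against 1383 in the first fit. Of 12 other PP2A regulatory subunits 4 were tested and 0 passed, with a median log2 difference of 0.37. Ppp2r3c, encoding a subunit of the B″ family, had -1.05 (adjusted p = 0.157 in limma), an uncertain value because 4 annotated genes are nearly identical to stretches of its transcript. The gene Strn, encoding striatin, had 0.97 (adjusted p = 0.0608 in limma). Both values, like that of the B56 gene Ppp2r5a, passed without Lsm14b-KO replicate 1, where 3 of the 4 tested genes and 45.3% of all tested genes did. Of 15 PP2A-like and PP1 phosphatase genes 7 were tested and 0 passed, with a median of 0.25. Of these, 2 passed under TPM scaling, 1 after the length and GC correction and 2 without Lsm14b-KO replicate 1.

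Of 13 genes for PP2A assembly, methylation and inhibition 10 were tested and 1 passed, Fam122a, which encodes an inhibitor of PP2A-B55. Fam122a had 3.37, 1.55 and 2.57 FPKM in the WT and 0.928, 0.364 and 0.162 FPKM in the Lsm14b-KO group. It fell by 1.23 on the log2 scale (SE 0.28, adjusted p = 0.0215 in limma). Its groups did not overlap, as in 45.0% of all tested genes and in other tested genes of this list that did not pass. All its Lsm14b-KO values were below 1 FPKM, so it entered the fit only through the WT group. The call was lost at the same difference without a filter on low values (adjusted p = 0.0595 in limma), under TPM scaling (-0.95, adjusted p = 0.0514 in limma) and after the length and GC correction (-0.72, adjusted p = 0.0833 in limma). It was also lost without WT replicate 1 or 3 or Lsm14b-KO replicate 2 or 3, with differences of -1.20 to -1.05 and adjusted p values of 0.0574 to 0.097 in limma. Fam122a also lies within Pip5k1b on the same strand, so fragments of either gene may count for it. The list's median was 0.32, and 3 of its genes passed under TPM scaling, 2 with quantile normalization and 4 without Lsm14b-KO replicate 1. Of all tested genes 20.6% passed under TPM scaling and 45.3% without Lsm14b-KO replicate 1. Igbp1, encoding a chaperone of the free catalytic subunit, was the most abundant gene of the list, with 230.4, 209.4 and 215.6 FPKM in the WT and 385.1, 185.1 and 272.1 FPKM in the Lsm14b-KO group, so that its groups overlapped. It passed as higher under TPM scaling (0.99, adjusted p = 0.0201 in limma) and with quantile normalization (1.00, adjusted p = 0.0225 in limma). These settings shifted the median of all tested genes by 0.475 and 0.144.

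Of 16 genes of CDK1 and its direct switch, the machinery that PP2A-B55 opposes, 11 were tested, 1 was higher and 1 was lower, with a median of 0.18. Wee1, a kinase that inhibits CDK1, had 0.797, 0.699 and 0.232 FPKM in the WT and 3.66, 4.01 and 3.56 FPKM in the Lsm14b-KO group. Cks1b, a small CDK-binding protein, had 4510, 4321 and 4133 FPKM in the WT and 2196, 612.5 and 988.7 FPKM in the Lsm14b-KO group. The log2 differences were 1.61 (adjusted p = 0.00328 in limma) for Wee1 and -1.97 (adjusted p = 0.0220 in limma) for Cks1b. Neither gene overlapped in its values between groups, which was also so for 45.0% of all tested genes. Other tested genes of this list that did not pass were without overlap too. Wee1 was below 1 FPKM in every WT library, so it entered the fit only through its Lsm14b-KO values. It passed in all 13 alternatives that tested it, and the filter of at least 1 FPKM in all 6 libraries left it out. Cks1b did not pass without a filter on low values (adjusted p = 0.0643 in limma), without any one WT library or without Lsm14b-KO replicate 3. In these fits its differences stayed at -2.00 to -1.90, with adjusted p values up to 0.101 in limma. Without Lsm14b-KO replicate 1, 6 genes of the list passed, in a fit in which 45.3% of all tested genes did. Cdk1 itself had 10.4, 12.1 and 14.6 FPKM in the WT and 15.6, 11.3 and 13.4 FPKM in the Lsm14b-KO group, with overlapping groups.

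**Figure D4:**
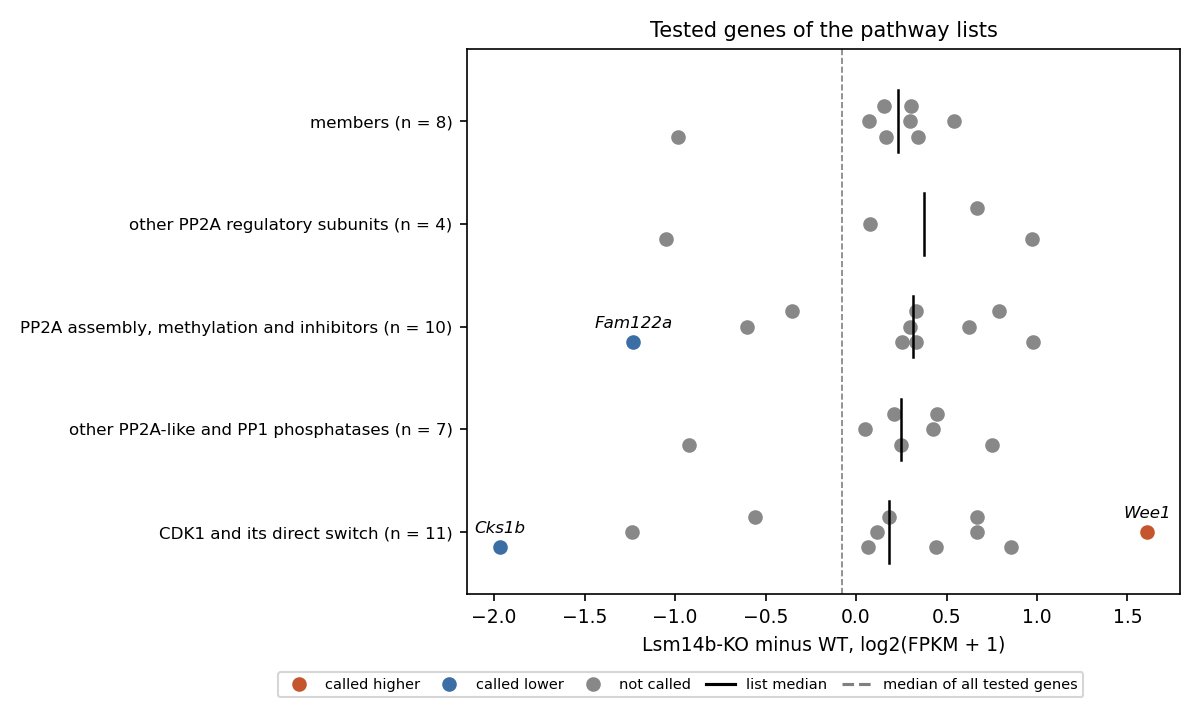
Lsm14b-KO minus WT difference on the log2(FPKM + 1) scale of every tested gene of the 10 pathway members and of 4 further lists, with black lines for list medians and a dashed line for the median of all 6398 tested genes. Wee1 (higher), Cks1b and Fam122a (lower) are the genes that passed an adjusted p of 0.05, and no member did.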

How the data were processed

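RNA-Seq libraries of 3 WT and 3 Lsm14b-KO samples were analysed, with groups and replicate numbers from titles and genotype labels. Per the labels, Smart-seq2 amplified the cDNA, which was sequenced in pairs. The authors aligned reads to mm10 with tophat2 (version 2.0.13) and deposited FPKM from cufflinks (version 2.2.1). The annotation is not given in the sources used here, and the labels name different library kits, so strandedness is not known. The authors' cuffdiff fold changes and p-values were not used.

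The deposited FPKM entered the fit as log2(FPKM + 1), for every gene that reached 1 FPKM in any library. The fit used limma 3.58.1 under R 4.3.3 (lmFit, eBayes with trend, genotype as the only term), with p-values adjusted by Benjamini-Hochberg over 6398 genes. This scale understates changes of low genes. Shares and ratios within libraries were compared by the exact permutation test. All tests were two-sided. Estimated fragments assume a fragment length of 200 nt. In 60.5 to 64.3% of low genes they fell within 0.1 of a whole number, against 20% if evenly spread, so no count model was fitted. Overlaps and sequences came from GENCODE vM21 (GRCm38, the assembly of mm10), and near-identical transcripts from blastn 2.17.0 (at least 95% identity over 200 nt). Fits were tested on simulated data.

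The members and gene lists were chosen with earlier results of these data known. Named besides the members were Lsm14b, the pathway list genes that passed, up to 4 in each direction, and the 5 genes most like Mastl. Chsy1 and Atg5 among these, and Ppp2r2b, Ppp2r3c, Ppp2r5a, Strn, Igbp1, Mast4, Cdk1, Serpine2 and Fshr, were singled out after their values were seen. So were Ppp2r3a, Ppp1r8, Strn3 and Ppp2r5d. Alternatives were another pseudocount, other filters, TPM scaling, quantile normalization, a length and GC correction, no intensity trend, a replicate block and leaving out each library.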

Additional observations from a re-analysis of the deposited data

How the results depend on the processing

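The number of genes that passed over the whole table was 1383, against 720 without a filter on low values and 315 to 2898 when single libraries were left out, highest without Lsm14b-KO replicate 1 and lowest without Lsm14b-KO replicate 3. The share of passing genes that were higher was 29.5%, 63.2% under TPM scaling, 42.4% with quantile normalization and 45.1% after the length and GC correction, which used lengths for 98.7% of genes. The number of pathway members that passed was 0, but 1 without a filter (Ppp2r1b), 1 under TPM scaling (Ppp2ca), and 0 to 2 when single libraries were left out. The Mastl difference kept its sign in all 14 alternatives and ran from 0.175 to 1.10 without single libraries, passing at 1.10 without Lsm14b-KO replicate 1. That of Arpp19 stayed negative in all 14. That of Ppp2r2a ran from -0.132 to 0.342 without single libraries, turning sign without Lsm14b-KO replicate 3 (adjusted p = 0.757 in limma). The shift in the Ppp2r1a share of scaffold FPKM was -20.4 percentage points after the length and GC correction and -31.5 to -25.4 without single libraries, and that in the Ppp2ca share of catalytic FPKM was -2.79 after the correction. The causes of these changes were not tested. Replicate numbers came from the titles, and same-numbered libraries were not treated as pairs in the first fit. The correlation of same-numbered deviations was 0.19, -0.13 and 0.02. With 3 libraries per group these values cannot settle whether such libraries were handled together. With a replicate block 1244 genes and 0 tested members passed, Mastl had 0.54 (adjusted p = 0.331 in limma), and the unfiltered Ppp2r1b call was lost (adjusted p = 0.0991 in limma). Depth limits Ppp2cb, Ppp2r1b and Ppp2r1a most, whose summed estimated fragments were fewest.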
